A study of Homo sapiens with 6 samples.

Results

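The genes described here encode the coats that shape transport vesicles: clathrin with its adaptors and endocytic helpers, the COPI coat and the COPII coat. They were chosen by a rule on gene names, with earlier results of these data known. The rule took the protein-coding genes for clathrin chains, subunits of the adaptor complexes AP-1 to AP-5, GGA adaptors, epsins and dynamins. It also took COPI and COPII subunits, PICALM, AAK1 and EPS15L1. This rule found 63 of the 19951 protein-coding genes, and of all 58735 genes, in the deposited table. The cells were NCI-N87, an established line derived from gastric carcinoma. They were infected with lentivirus in the presence of polybrene and selected with puromycin (2 μg/ml), so both groups were infected, drug-selected stable populations. The shCtrl cells carried the empty pSIH-H1-puro vector, which has no hairpin, and the genotype label is Control. The shS1#1 cells carried the same vector with 1 shRNA against SCAMP1, a membrane protein of secretory and recycling vesicles. Each group had 3 RNA-seq libraries, titled shNC and shScamp1 and numbered as biological replicates. The sources used here do not say whether the replicates came from separate infections, so p-values measure the spread between these samples, which may be technical. The other hairpin (shS1#2) and the SNU-1 line are not analysed here, and with 1 hairpin the loss of SCAMP1 and other effects of that hairpin cannot be told apart.

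Coat proteins assemble on the cytosolic face of a membrane, collect cargo and bend the membrane into a bud. Clathrin is a cage of heavy and light chains that reaches membranes through adaptors: AP-2 at the plasma membrane, and AP-1 and the GGA proteins at the trans-Golgi network and endosomes. AP-3 acts in sorting to lysosomes, AP-4 at the trans-Golgi network and AP-5 at late endosomes. COPII carries cargo out of the endoplasmic reticulum, and COPI carries it back from the Golgi and between Golgi cisternae.

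Expression was deposited as FPKM, which scales the reads of a gene to its length and to the size of the library. Levels of different genes are compared on this scale unless reads are named. The libraries held 14311769 to 15988700 reads on genes. The target SCAMP1 had levels of 12.6, 12.1 and 11.5 FPKM in shCtrl replicates 1 to 3 and of 1.70, 1.37 and 1.99 FPKM in shS1#1 replicates 1 to 3. Of the epithelial markers, KRT8, KRT18, KRT19, EPCAM, CDH1 and CEACAM5 were detected in all libraries, from 8.19 FPKM (CEACAM5, in shCtrl) upwards. Except for EPCAM, which overlapped, these markers were higher in every shS1#1 library than in every shCtrl library. The groups did not overlap, in either direction, for 41.4% of all genes tested. The leukocyte and endothelial markers PTPRC, CD3E, PECAM1 and CDH5 reached at most 0.0450 FPKM, and of the fibroblast markers COL1A2 was at 0 in all libraries and COL1A1 lay between 0.476 and 0.773 FPKM. The shS1#1 replicate 2 library stood apart. Read counts of pairs of replicates differed with a chi-square per degree of freedom of 2.07 to 2.78 among shCtrl libraries and 3.41 between shS1#1 replicates 1 and 3, against 51.5 and 40.3 for the pairs that held shS1#1 replicate 2. This library also had a mitochondrial share of 9.21% of reads, against 6.09% to 6.78% in the others, so results are given with and without it.

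Most coat genes were well expressed in NCI-N87 cells. Of the 63 genes, 57 averaged 0.5 FPKM or more over the 6 libraries and were tested, with limma on log2(FPKM + 0.1) and Benjamini-Hochberg adjustment over all 15556 genes tested. Fold changes are on this log2 scale, where the added constant makes changes of low genes look smaller. The highest were CLTB with a mean of 182 FPKM, AP2M1 with 110.0 FPKM and AP2S1 with 84.3 FPKM. The lowest of those tested were SEC31B with 0.741, DNM1 with 0.807 and AP5S1 with 1.96 FPKM. The other 6 were not tested. AP3B2, the neuronal beta subunit of AP-3, had 0 reads in all libraries, SEC16B lay between 0 and 0.0557 FPKM, DNM3 between 0.0363 and 0.0784, AP4S1 between 0.121 and 0.284, CLTCL1 between 0.197 and 0.378, and COPZ2 between 0.276 and 0.444 FPKM.

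In shS1#1 cells 4 coat genes passed an adjusted p of 0.05, all of them higher: CLTB, EPN3, AP3D1 and SEC24D. These 4 of 57 are 7.02%, against 8.82% of all genes tested that were higher, so the share of coat genes was near the background. No coat gene was lower by limma, against 5.17% of all genes tested. At an unadjusted p under 0.05, 13 coat genes (22.8%) were higher and 3 (5.26%) were lower (GGA2, SEC23A and DNM1), against 16.1% and 14.7% of all genes tested. The voom fit on recovered reads called the same 4 higher and these 3 lower, against 8.36% and 10.6% of all genes tested. None passed both an adjusted p of 0.05 and an absolute log2 fold change of 1, against 3.16% of all genes tested. That count was 0 also with the unadjusted p and with voom. The log2 fold changes ran from -0.65 (DNM1) to 0.95 (CLTB), with a median of 0.08 in coat genes and -0.02 in all genes tested. Of the 57 coat genes 33 were above 0, against 47.6% of all genes tested. The FPKM ranges of the groups did not overlap for 28 of the 57 coat genes (49.1%), against 41.4% of all genes tested. For 39 of the 53 genes that were not called, the 95% interval of the log2 fold change lay within 0.5 of 0, and for 51 within 1 of 0. In bulk RNA, fewer cells that express a gene and less RNA per cell cannot be told apart.

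**Figure D1:**
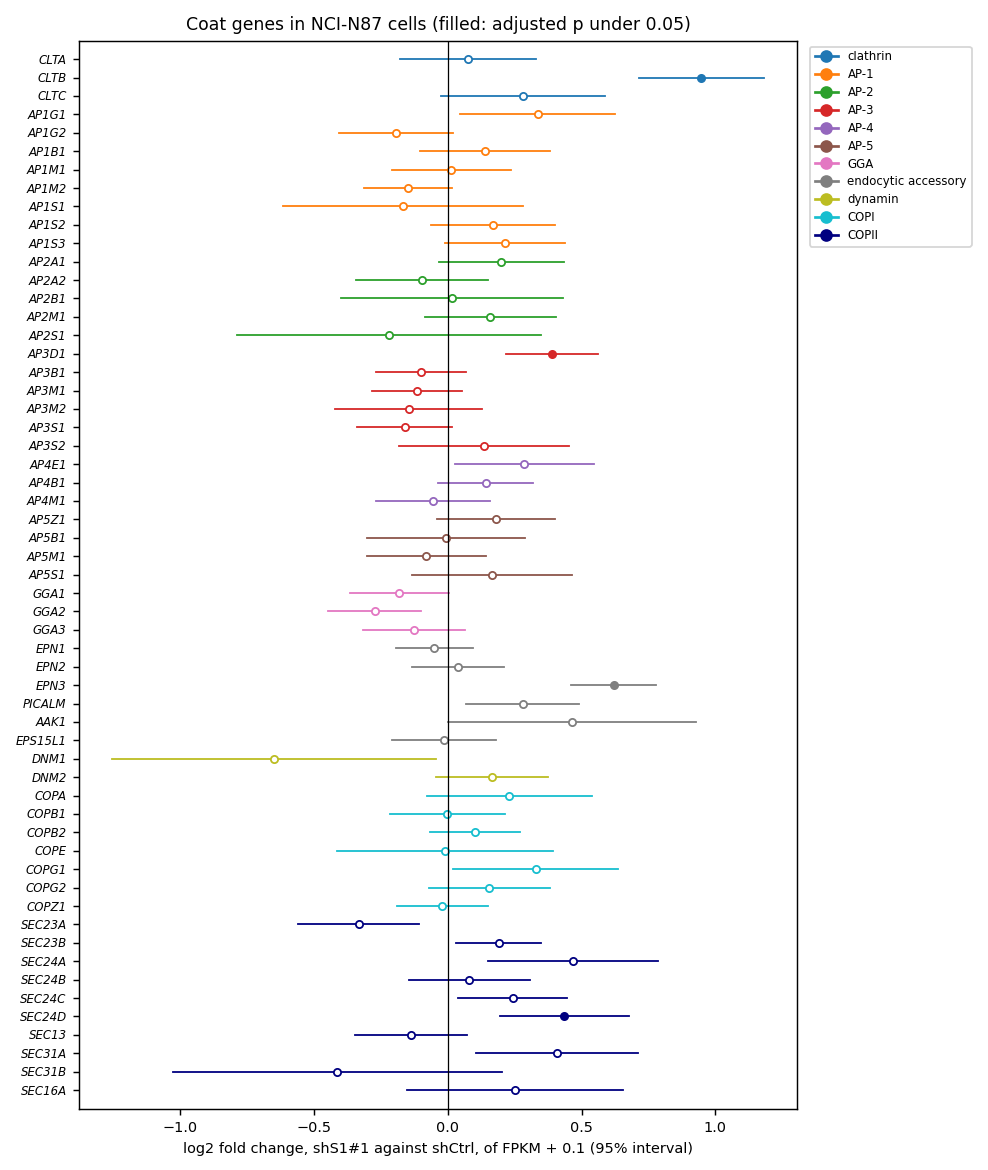
The log2 fold change (x axis, shS1#1 against shCtrl, on FPKM + 0.1) of each of the 57 tested coat genes, coloured by coat, with lines for the 95% interval from limma and filled points for an adjusted p under 0.05. Only CLTB, EPN3, AP3D1 and SEC24D have filled points, all to the right of 0, and CLTB stands farthest out at 0.95.

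Leaving out shS1#1 replicate 2 changed the count of calls more than any other setting tried. Without it, 13 coat genes were higher (CLTB, EPN3, AP3D1, SEC24D, CLTA, AP2M1, PICALM, AP1G1, AP5Z1, COPG1, SEC23B, SEC24C and SEC31A) and 3 were lower (AP2B1, GGA2 and SEC23A), and CLTB, at a log2 fold change of 1.04, passed both thresholds. In the same fit 14.7% of all genes tested were higher and 13.2% were lower. Of the 57 log2 fold changes, 27 moved by over 1.5 times or changed sign without this library, and 7 changed sign (AP1S1, AP2B1, AP2S1, COPB1, COPE, COPZ1 and SEC24B, which became 0.00). Such ratios and signs are unstable for values near 0, such as those of COPB1 (-0.0008) and COPE (-0.009) with all libraries. The same count was not made over all genes tested. The split of calls also moved with the scaling. Of all genes tested, 1372 were higher and 805 lower on the deposited scale, 1138 were higher and 1268 lower with FPKM rescaled to the library totals, and 1300 were higher and 1655 lower by voom. For coat genes the rescaling to library totals gave 4 higher and 2 lower (GGA2 and SEC23A), against 7.32% and 8.15% of all genes tested, and their median log2 fold change became 0.01.

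The clathrin light chains responded unequally. CLTB encodes light chain b, a regulatory subunit that lines the clathrin heavy chain, and CLTA encodes light chain a, its closest relative in the same position of the cage. CLTB (ENSG00000175416, on the reverse strand of chromosome 5, from 176392455 to 176416569) was at 121, 122.6 and 127 FPKM in shCtrl and at 254, 209.8 and 256 FPKM in shS1#1 replicates 1 to 3. All shS1#1 libraries were above all shCtrl libraries, and replicate 2 was the lowest of its group. The means were 124 ± 3.33 FPKM (SD, n = 3) in shCtrl and 239.7 ± 25.9 FPKM (SD, n = 3) in shS1#1, from 3917 to 7627 reads per library. CLTB rose by a log2 fold change of 0.95 (standard error 0.10, limma adjusted p = 0.00237), with a 95% interval from 0.71 to 1.18. With any 1 library left out, its log2 fold change lay between 0.90 and 1.04. CLTA was at 67.6, 67.5 and 68.2 FPKM in shCtrl and at 75.5, 61.3 and 78.8 FPKM in shS1#1. Replicates 1 and 3 of shS1#1 were above the shCtrl range and replicate 2 below it. The log2 fold change of CLTA was 0.08 (95% interval from -0.18 to 0.33, limma adjusted p = 0.658), and without replicate 2 it was 0.19 (limma adjusted p = 0.0120). The heavy chain CLTC, the leg of the clathrin triskelion, was at 43.3, 42.7 and 41.1 FPKM in shCtrl and at 45.2, 62.6 and 48.4 FPKM in shS1#1. The groups did not overlap, and shS1#1 replicate 2 was the highest library. Its log2 fold change was 0.28 (95% interval from -0.03 to 0.59, limma adjusted p = 0.193), and 0.14 without replicate 2.

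**Figure D2:**
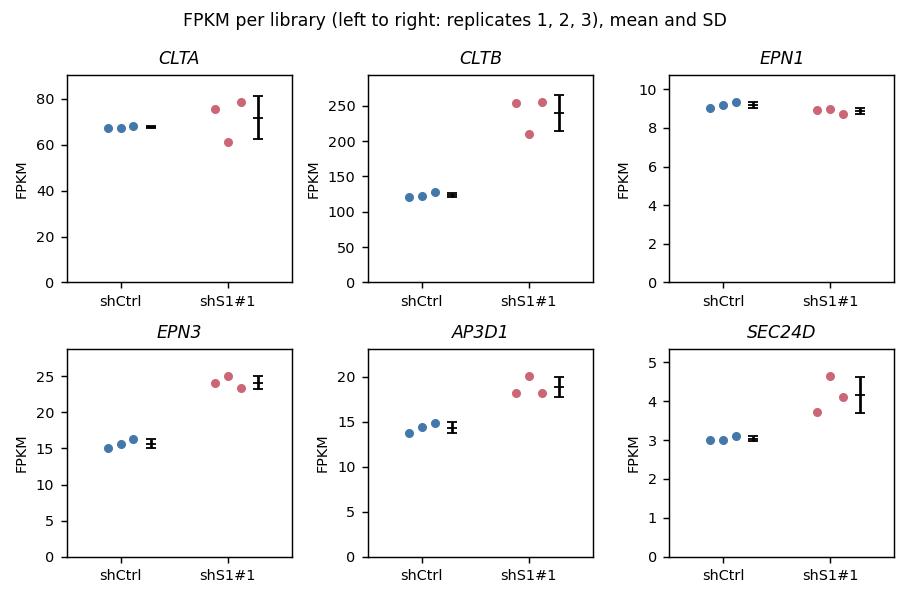
FPKM (y axis, from 0) of 6 coat genes in each library, with blue points for shCtrl, red points for shS1#1 and bars for the mean and SD of 3 libraries. CLTB, EPN3, AP3D1 and SEC24D are higher in all 3 shS1#1 libraries, CLTA overlaps between the groups, and the EPN1 values of shS1#1 lie just below those of shCtrl.

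The promoters of the light chain genes are shown because these paralogues, which fill the same place in the cage, differed in their response. Each stretch runs from 250 bases before to 50 bases after the most upstream start given by RefSeq on GRCh38.p14. Positions and matches refer to this start alone. The stretch is read 5′ to 3′ on the strand of the gene, and RefSeq entries were found for 56 of the 63 coat genes. Capitals mark a cyclic AMP response element (TGACGTCA), a GC box (GGGCGG, or CCGCCC on the other strand) or a CCAAT box (CCAAT, or ATTGG on the other strand). None of the marked motifs overlap.
CLTA promoter, chr9:36190671-36190970, forward strand: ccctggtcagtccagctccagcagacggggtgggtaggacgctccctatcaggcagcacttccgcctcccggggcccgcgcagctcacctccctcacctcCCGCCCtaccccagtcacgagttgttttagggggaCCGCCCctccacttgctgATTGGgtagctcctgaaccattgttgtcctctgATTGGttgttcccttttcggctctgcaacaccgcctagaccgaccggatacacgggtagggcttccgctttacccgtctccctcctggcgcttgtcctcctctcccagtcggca
CLTB promoter, chr5:176416520-176416819, reverse strand: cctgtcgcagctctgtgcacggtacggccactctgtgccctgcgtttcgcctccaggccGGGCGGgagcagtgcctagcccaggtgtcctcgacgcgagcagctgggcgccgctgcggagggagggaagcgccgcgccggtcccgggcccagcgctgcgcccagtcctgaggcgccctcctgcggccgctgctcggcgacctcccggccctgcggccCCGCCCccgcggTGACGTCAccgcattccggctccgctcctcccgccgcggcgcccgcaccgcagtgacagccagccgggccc
The CLTB stretch had a GC content of 77.7% and held 1 cyclic AMP response element, whose first base was at -21 from the start, and 2 GC boxes. The CLTA stretch had a GC content of 63.0% and held 2 GC boxes, 2 CCAAT boxes on the other strand and no cyclic AMP response element. Of 34943 promoters of this length, 1.84% held the cyclic AMP response element, 44.9% a GC box and 34.6% a CCAAT box. These matches describe letters only.

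Among the endocytic helper genes EPN3 was the 1 that passed the test. Epsins bind clathrin, AP-2 and ubiquitinated cargo and help to curve the membrane, and EPN3 is the member found mainly in epithelia. EPN3 (chromosome 17, forward strand, from 50532543 to 50543750) was at 15.0, 15.7 and 16.3 FPKM in shCtrl and at 24.0, 25.0 and 23.3 FPKM in shS1#1. The groups were clearly apart, and replicate 2 lay with the others. The means were 15.7 ± 0.638 FPKM (SD, n = 3) and 24.1 ± 0.870 FPKM (SD, n = 3), from 1106 to 1627 reads per library. EPN3 rose by a log2 fold change of 0.62 (standard error 0.06, limma adjusted p = 0.00261, 95% interval from 0.46 to 0.78), between 0.59 and 0.65 with each library left out. In the annotation EPN3 shares 478 exonic bases with SPATA20 on the same strand, and SPATA20 was at group means of 8.19 FPKM in shCtrl and 7.86 FPKM in shS1#1. EPN1, the widely expressed epsin, was at 9.03, 9.19 and 9.36 FPKM in shCtrl and at 8.95, 8.99 and 8.70 FPKM in shS1#1, with a log2 fold change of -0.05 (95% interval from -0.19 to 0.09). EPN2 had a log2 fold change of 0.04 (95% interval from -0.13 to 0.21).

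PICALM, AAK1 and EPS15L1 did not pass the test. PICALM, a clathrin assembly protein that also recruits vesicle SNAREs, was at 25.6, 26.3 and 25.0 FPKM in shCtrl and at 29.3, 35.0 and 29.6 FPKM in shS1#1. Its ranges did not overlap (log2 fold change 0.28, limma adjusted p = 0.0835), and without shS1#1 replicate 2 the change was 0.20 (limma adjusted p = 0.0145). AAK1, the kinase that phosphorylates the mu subunit of AP-2, was at 1.68 to 1.86 FPKM in shCtrl and at 1.96, 3.29 and 2.30 FPKM in shS1#1, with a log2 fold change of 0.46 (95% interval from 0.00 to 0.93, limma adjusted p = 0.162), or 0.26 without shS1#1 replicate 2. EPS15L1, a scaffold related to EPS15, had a log2 fold change of -0.01 (95% interval from -0.21 to 0.18).

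The subunits of AP-2, the adaptor of endocytosis, did not pass the test, at an unadjusted p under 0.05 either. AP2M1, the medium subunit that reads tyrosine-based sorting signals, was at 102, 98.1 and 112 FPKM in shCtrl and at 126, 102 and 120.2 FPKM in shS1#1. Of the shS1#1 libraries, replicate 2 lay within the shCtrl range. The log2 fold change was 0.16 (95% interval from -0.09 to 0.41, limma adjusted p = 0.335), and 0.25 (limma adjusted p = 0.0356) without that library. AP2B1, the beta subunit that binds clathrin, was at 37.1, 38.2 and 37.1 FPKM in shCtrl and at 32.4, 50.3 and 33.3 FPKM in shS1#1. Replicate 2 lay above the shCtrl range and the other shS1#1 libraries below it, so the log2 fold change was 0.02 with all libraries and -0.19 (limma adjusted p = 0.0128) without replicate 2. The small subunit AP2S1 was at 84.2, 87.9 and 95.6 FPKM in shCtrl and at 94.5, 51.8 and 91.6 FPKM in shS1#1, with replicate 2 below the shCtrl range and the others within it. Its log2 fold change was -0.22 (95% interval from -0.79 to 0.35), or 0.06 without replicate 2. The alpha subunits, which bind membrane lipids and accessory proteins, had log2 fold changes of 0.20 (AP2A1, 95% interval from -0.03 to 0.43) and -0.09 (AP2A2, 95% interval from -0.34 to 0.15), or 0.12 and -0.19 without replicate 2.

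Of the 8 AP-1 genes none passed the adjusted test, and AP1G1 was the 1 with an unadjusted p under 0.05. AP1G1, a gamma subunit, was at 13.1, 13.3 and 12.6 FPKM in shCtrl and at 14.5, 19.7 and 15.6 FPKM in shS1#1. The groups did not overlap, and the log2 fold change was 0.34 (limma adjusted p = 0.117), or 0.21 (limma adjusted p = 0.0310) without shS1#1 replicate 2. Its paralogue AP1G2 was at 3.29 to 3.34 FPKM in shCtrl and at 3.12, 2.64 and 2.92 FPKM in shS1#1 (log2 fold change -0.19, limma adjusted p = 0.198). AP1M2, the medium subunit of the epithelial form AP-1B, was at 50.4 FPKM on average, well above its ubiquitous relative AP1M1 at 2.61 FPKM. In reads the gap was smaller, with AP1M2 at 75.9% of the pair in shCtrl and 73.7% in shS1#1. AP1M1 is longer in the annotation used (14371 bases against 2214). The log2 fold changes of AP1M2 and AP1M1 were -0.15 (95% interval from -0.31 to 0.02) and 0.01 (95% interval from -0.21 to 0.23). For AP1M1 it was 0.08 without shS1#1 replicate 2. The beta subunit AP1B1 had a log2 fold change of 0.14, or 0.04 without shS1#1 replicate 2, and the small subunits AP1S1, AP1S2 and AP1S3 had -0.17, 0.17 and 0.21. The interval of AP1S1 was wide, from -0.62 to 0.28, with 41.5 FPKM in shS1#1 replicate 2 against 67.4 and 64.3 FPKM in replicates 1 and 3, and its log2 fold change was 0.05 without replicate 2.

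The GGA adaptors, which sort mannose 6-phosphate receptors, all had log2 fold changes below 0, under each setting tried, and ranges that did not overlap between the groups. GGA2 was at 14.8, 15.2 and 15.3 FPKM in shCtrl and at 12.1, 13.5 and 12 FPKM in shS1#1. It came nearest to the threshold among the genes that were not called (log2 fold change -0.27, standard error 0.07, limma adjusted p = 0.0536). Without shS1#1 replicate 2 it passed, with a log2 fold change of -0.33 (limma adjusted p = 0.00325). GGA1 was at 8.82, 8.92 and 9.22 FPKM in shCtrl and at 7.89, 7.37 and 8.53 FPKM in shS1#1 (log2 fold change -0.18, limma adjusted p = 0.169). GGA3 was at 12.9, 13.3 and 13.5 FPKM in shCtrl and at 12.8, 11 and 12.5 FPKM in shS1#1 (log2 fold change -0.13, limma adjusted p = 0.326, or -0.06 without replicate 2). GGA3 shares 213 exonic bases with MRPS7 on the opposite strand, which was at group means of 40.4 FPKM in shCtrl and 32.6 FPKM in shS1#1. The summed FPKM of the 3 GGA genes was 37.3 ± 0.728 (SD, n = 3) in shCtrl and 32.6 ± 0.607 (SD, n = 3) in shS1#1.

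In AP-3 the delta subunit stood out. AP3D1, a large subunit of the AP-3 core, was at 13.8, 14.4 and 14.9 FPKM in shCtrl and at 18.2, 20.1 and 18.2 FPKM in shS1#1. The groups did not overlap, and the means were 14.4 ± 0.568 FPKM (SD, n = 3) and 18.8 ± 1.08 FPKM (SD, n = 3). AP3D1 (chromosome 19, reverse strand, from 2100988 to 2164468) rose by a log2 fold change of 0.39 (standard error 0.07, limma adjusted p = 0.0175). The call was lost without any 1 of the shCtrl libraries (limma adjusted p = 0.0911, 0.0839 and 0.0630 without replicates 1, 2 and 3) and without shS1#1 replicate 3 (limma adjusted p = 0.0590). The other 5 tested subunits did not pass the test. AP3B1, the beta subunit altered in Hermansky-Pudlak syndrome, had a log2 fold change of -0.10, and the medium subunits AP3M1 and AP3M2 had -0.11 and -0.14. The small subunits AP3S1 and AP3S2 had log2 fold changes of -0.16 and 0.14. Without shS1#1 replicate 2 the values of AP3M2 and AP3S2 were -0.03 and 0.01. The summed FPKM of the AP-3 genes was 68.2 ± 0.347 (SD, n = 3) in shCtrl and 68.4 ± 0.50 (SD, n = 3) in shS1#1.

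AP-4 and AP-5, which do not use clathrin, were expressed at lower levels, and none of their 7 tested genes passed the test. The epsilon subunit AP4E1 was at 2.92, 2.89 and 2.50 FPKM in shCtrl and at 3.05, 3.57 and 3.59 FPKM in shS1#1 (log2 fold change 0.29, limma adjusted p = 0.132, unadjusted p = 0.0355). The beta subunit AP4B1 and the medium subunit AP4M1 had log2 fold changes of 0.14 and -0.05. In AP-5 the zeta subunit AP5Z1 was at 4.73, 5.02 and 5.27 FPKM in shCtrl and at 5.89, 5.14 and 6.08 FPKM in shS1#1. Its log2 fold change was 0.18 (limma adjusted p = 0.231), or 0.25 (limma adjusted p = 0.0394) without shS1#1 replicate 2, the library that lay within the shCtrl range. AP5B1, AP5M1 and AP5S1, the beta, medium and small subunits, had log2 fold changes of -0.01, -0.08 and 0.17, and without that library -0.12, -0.13 and 0.15.

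Dynamins are the GTPases that cut the neck of a clathrin-coated bud. The ubiquitous DNM2 made up nearly all of their transcript level, at 15.5, 14.7 and 17.2 FPKM in shCtrl and at 16.9, 19.1 and 17.2 FPKM in shS1#1 (log2 fold change 0.17, 95% interval from -0.04 to 0.37). DNM1, the neuronal form, was at 0.919, 1.17 and 0.919 FPKM in shCtrl and at 0.661, 0.434 and 0.742 FPKM in shS1#1. These values rested on 64 to 210 reads per library, and the groups did not overlap. The log2 fold change of -0.65 (standard error 0.25) had an adjusted p of 0.140 by limma. Without shS1#1 replicate 2, the lowest library, it was -0.45 (limma adjusted p = 0.157).

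None of the 7 tested COPI subunits passed the test, and COPG1 was the 1 with an unadjusted p under 0.05. COPG1, the gamma subunit that binds cargo and ARF1, was at 25.4, 27.3 and 26.6 FPKM in shCtrl and at 29.6, 40.4 and 30.6 FPKM in shS1#1. The groups did not overlap, and the log2 fold change was 0.33 (limma adjusted p = 0.140), or 0.19 (limma adjusted p = 0.0279) without shS1#1 replicate 2. Its paralogue COPG2 had a log2 fold change of 0.16 (95% interval from -0.07 to 0.38). The outer subunits COPA, COPB2 and COPE had log2 fold changes of 0.23, 0.10 and -0.01, and the inner subunits COPB1 and COPZ1 had 0.00 and -0.02. Without replicate 2 the outer subunits had 0.09, 0.05 and 0.18, and the inner subunits 0.07 and 0.03. COPE was at 20.9, 22.1 and 23.6 FPKM in shCtrl and at 25.8, 16.9 and 24.5 FPKM in shS1#1, so that replicate 2 lay below the shCtrl range and the other shS1#1 libraries above it.

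COPII gave the fourth called gene, SEC24D. SEC24 proteins are the cargo-binding subunits of the inner COPII coat, and humans have the isoforms A to D. SEC24D (chromosome 4, reverse strand, from 118722823 to 118838683) was at 3.00, 2.99 and 3.11 FPKM in shCtrl and at 3.72, 4.65 and 4.10 FPKM in shS1#1. The groups did not overlap, and the means were 3.03 ± 0.0627 FPKM (SD, n = 3) and 4.16 ± 0.466 FPKM (SD, n = 3). SEC24D rose by a log2 fold change of 0.44 (standard error 0.10, limma adjusted p = 0.0359). Its call was lost without any 1 of the shCtrl libraries (limma adjusted p = 0.131, 0.136 and 0.115 without replicates 1, 2 and 3) and without shS1#1 replicate 3 (limma adjusted p = 0.106). SEC24A was at 3.81, 3.01 and 2.81 FPKM in shCtrl and at 4.08, 4.73 and 4.55 FPKM in shS1#1. Its fold change was no smaller (log2 fold change 0.47, standard error 0.13), but its adjusted p of 0.0644 by limma missed the threshold, and it passed (limma adjusted p = 0.0470) without shCtrl replicate 1, the highest library of that group. SEC24A shares 385 exonic bases with SAR1B on the opposite strand. SEC24B and SEC24C had log2 fold changes of 0.08 (limma adjusted p = 0.598) and 0.24 (limma adjusted p = 0.109), and SEC24C passed without shS1#1 replicate 2 (log2 fold change 0.17, limma adjusted p = 0.0379).

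The SEC23 paralogues, which stimulate the GTPase SAR1, had fold changes of opposite sign. SEC23A was at 4.89, 4.80 and 4.74 FPKM in shCtrl and at 3.43, 4.22 and 3.79 FPKM in shS1#1 (log2 fold change -0.33, limma adjusted p = 0.0640). SEC23B was at 21.1, 22.1 and 22.7 FPKM in shCtrl and at 26.4, 24.4 and 24.5 FPKM in shS1#1 (log2 fold change 0.19, limma adjusted p = 0.108). Neither overlapped between the groups, and without shS1#1 replicate 2 both passed, at log2 fold changes of -0.41 (limma adjusted p = 0.00998) and 0.21 (limma adjusted p = 0.0316). SEC31A, the main outer coat subunit, was at 11.7, 11.2 and 11.4 FPKM in shCtrl and at 13.2, 18.3 and 14.4 FPKM in shS1#1. All shS1#1 libraries were higher, and the log2 fold change was 0.41 (limma adjusted p = 0.0807), or 0.27 (limma adjusted p = 0.0162) without replicate 2. SEC31A shares 482 exonic bases with THAP9-AS1 on the same strand. Its rare paralogue SEC31B was at 0.922, 0.854 and 0.783 FPKM in shCtrl and at 0.811, 0.451 and 0.629 FPKM in shS1#1 (log2 fold change -0.41, 95% interval from -1.03 to 0.20, or -0.22 without replicate 2). SEC13, the partner of SEC31 that also serves in the nuclear pore, and SEC16A, the scaffold of exit sites, had log2 fold changes of -0.14 and 0.25, and of -0.06 and 0.06 without shS1#1 replicate 2. SEC13 was at 16.6, 17.5 and 17.7 FPKM in shCtrl and at 16.7, 14.0 and 16.4 FPKM in shS1#1. SEC16A was at 22.1, 22.2 and 22.7 FPKM in shCtrl and at 22.4, 35.0 and 24.2 FPKM in shS1#1, with replicate 2 far above the rest.

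Several coat positions can be filled by more than 1 paralogue, so the share of each paralogue in the summed FPKM of its position was computed in each library. This covered 42 paralogues in 18 positions, and the shares of a position sum to 100%. In 3 positions (the clathrin light chain, epsin and the AP-1 gamma subunit) the mean share moved by 5 percentage points or more. With reads in place of FPKM, AP1G1 moved by 3.73 points, and SEC23B (7.22 points) and AP1S1 (-5.41 points) joined the light chain and epsin. The read share of AP1S1 overlapped between the groups, with 61.6% in shS1#1 replicate 2 and 74.5% and 73.6% in replicates 1 and 3. With 3 libraries against 3, an exact two-sided permutation test cannot give a p below 0.1. That value was reached for the FPKM shares of CLTB, EPN3, AP1G1, SEC23B and AP2A1, among others. The FPKM shares of 23 of the 42 paralogues, in 11 of the 18 positions, did not overlap between the groups. Since the shares of a position sum to 100%, its paralogues move together and are not independent counts. The heavy chain is among these positions, with a shift of 0.22 points and a CLTCL1 too low to test. No such share was computed for other genes, but the FPKM of 41.4% of all genes tested did not overlap. CLTB made up 64.2%, 64.5% and 65.1% of light chain FPKM in shCtrl and 77.1%, 77.4% and 76.4% in shS1#1, a difference of 12.3 percentage points. This share was alike in all shS1#1 libraries, replicate 2 included, although the FPKM of both light chains was lowest there. EPN3 made up 54.7%, 55.2% and 55.6% of epsin FPKM in shCtrl and 65.5%, 66.5% and 65.4% in shS1#1, a difference of 10.7 percentage points, with EPN1 at -8.15 and EPN2 at -2.53 points. The mean share of AP1G1 among gamma subunits was 79.7% in shCtrl and 84.9% in shS1#1, but 88.2% in shS1#1 replicate 2 lay above the 82.3% and 84.2% of the other libraries. SEC23B went from 82.0% to 86.8% of SEC23 and AP2A1 from 75.4% to 79.1% of AP-2 alpha. In COPII, SEC24C was the leading SEC24 isoform with 44.7% in shCtrl and 44.9% in shS1#1 (exact permutation test, p = 0.8). The shares of SEC24B and SEC24D moved by -3.59 and 1.56 percentage points, without overlap between the groups (exact permutation test, p = 0.1 for each). The SEC24A share moved by 1.85 points and overlapped (exact permutation test, p = 0.2). Counted in reads instead of FPKM, EPN3 was not the leading epsin, with 27.0% to 27.8% in shCtrl and 37.0% to 38.1% in shS1#1, since EPN1 is longer in the annotation used (17616 bases against 4642).

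**Figure D3:**
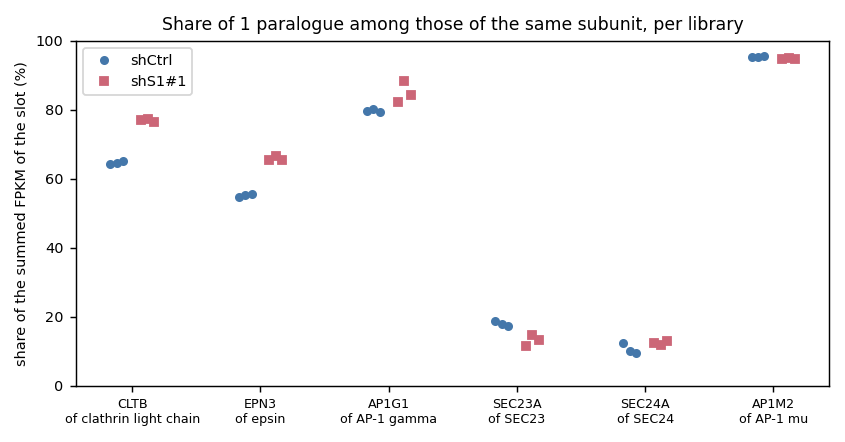
Share (y axis, % of the summed FPKM of paralogues for the same position) of 6 coat genes in each library, with circles for shCtrl and squares for shS1#1. The CLTB share lies at 64.2% to 65.1% in shCtrl and 76.4% to 77.4% in shS1#1, the EPN3 share at 54.7% to 55.6% and 65.4% to 66.5%, and the SEC24A shares of the groups overlap.

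The deviation of shS1#1 replicate 2 moved with gene length in the coat genes. The difference of its log2(FPKM + 0.1) from the mean of replicates 1 and 3 had a Spearman correlation with gene length of 0.44 over the 57 tested coat genes and of 0.22 over all 15556 genes tested. This describes genes of the same 3 libraries, which are not independent replicates. Among the 8 shortest tested coat genes (1704 to 3901 bases) the difference was below 0 in 8, with a median of -0.31, and among the 8 longest (10775 to 23608 bases) it was below 0 in 2, with a median of 0.15. The most negative values were those of AP2S1 (-0.84) and AP1S1 (-0.66), and the most positive those of AP2B1 (0.61), AAK1 (0.61) and SEC16A (0.59). When the trend with length was removed from each library, 6 coat genes were higher and 2 lower, against 10.6% and 7.41% of all genes tested. CLTB then had a log2 fold change above 1 and was the 1 coat gene past both thresholds. The part of gene length and of the mitochondrial share in the results of this library was not tested.

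**Figure D4:**
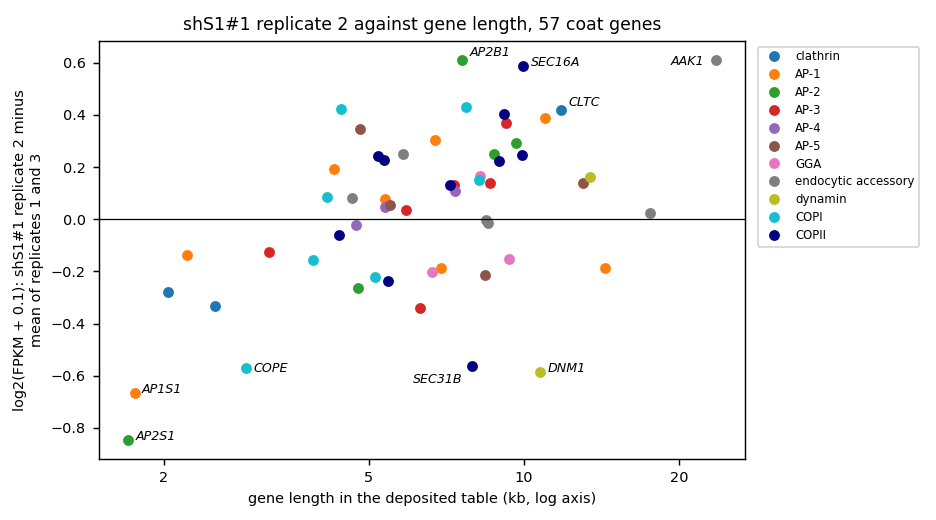
Difference in log2(FPKM + 0.1) between shS1#1 replicate 2 and the mean of shS1#1 replicates 1 and 3 (y axis) against gene length (x axis, kb, log scale) for the 57 tested coat genes, coloured by coat. The short genes AP2S1 (-0.84), AP1S1 (-0.66) and COPE (-0.57) lie below 0, and AP2B1 (0.61), SEC16A (0.59) and AAK1 (0.61) lie at the top.

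The partners of these coats were read from a list of 92 further genes: clathrin accessory proteins, regulators and cargo receptors of COPI, and those of COPII. Of these, 81 were tested, 9 passed an adjusted p of 0.05 as higher and 1 as lower (11.1% and 1.23%, against 8.82% and 5.17% of all genes tested), with a median log2 fold change of 0.02. The higher share was near the background. By group, 6 of 35 tested clathrin accessory genes were higher and 1 lower, 1 of 26 COPI partners was higher, and 2 of 20 COPII partners were higher. DAB2, a cargo adaptor for lipoprotein receptors and integrins, was at 0.270, 0.303 and 0.285 FPKM in shCtrl and at 1.2, 1.31 and 1.05 FPKM in shS1#1. It was the 1 gene of the list past both thresholds (log2 fold change 1.73, standard error 0.23, limma adjusted p = 0.00657), and with a pseudocount of 1 its log2 fold change was 0.76. FCHO2, which helps to start clathrin-coated pits, was at 6.34, 6.91 and 6.47 FPKM in shCtrl and at 12.5, 12.6 and 12.9 FPKM in shS1#1 (log2 fold change 0.94, standard error 0.06, limma adjusted p = 0.000696). ERGIC2, a cycling protein of the intermediate compartment between endoplasmic reticulum and Golgi, was at 6.28, 7.0 and 6.34 FPKM in shCtrl and at 11.2, 14.3 and 12.3 FPKM in shS1#1 (log2 fold change 0.93, limma adjusted p = 0.00369). For these 3 genes every shS1#1 library was above every shCtrl library.

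The gene of the list that fell was NUMBL, a relative of the endocytic adaptor NUMB. It was at 9.26, 9.48 and 9.64 FPKM in shCtrl and at 7.11, 5.93 and 6.85 FPKM in shS1#1 (log2 fold change -0.51, limma adjusted p = 0.0137). NUMBL lost the call without any 1 of the shCtrl libraries, with limma adjusted p from 0.0618 to 0.0711. Among the genes listed by hand as COPI partners, the gene that passed was ARF6, a GTPase of the plasma membrane and endosomes. Its place in that group was a choice of the list and not a result. ARF6 was at 44.4, 44.4 and 47.6 FPKM in shCtrl and at 54.2, 52.8 and 54.7 FPKM in shS1#1 (log2 fold change 0.25, limma adjusted p = 0.0481). This call was lost without each library except shS1#1 replicate 2, with limma adjusted p from 0.0928 to 0.190. ITSN2, an endocytic scaffold, was at 4.20, 3.90 and 3.98 FPKM in shCtrl and at 4.82, 5.77 and 5.35 FPKM in shS1#1 (log2 fold change 0.39, limma adjusted p = 0.0368). The remaining genes that rose were SYNRG, SYNJ1, PACSIN2 and the cargo receptor subunit MCFD2, with log2 fold changes from 0.42 to 0.74. Of these genes, ITSN2, SYNJ1 and SYNRG lost the call without any 1 of the shCtrl libraries, with limma adjusted p up to 0.146, 0.0779 and 0.0933, and ITSN2 and SYNJ1 also without shS1#1 replicate 3. MCFD2 lost it without shCtrl replicate 2 (limma adjusted p = 0.0554). ARCN1, the delta subunit of the COPI coat, which the naming rule left out, was at 37.5, 38.2 and 35.1 FPKM in shCtrl and at 41.7, 50.2 and 43.4 FPKM in shS1#1 (log2 fold change 0.28, limma adjusted p = 0.0863). Leaving out shS1#1 replicate 2 gave 23 higher and 10 lower genes of the 81 (28.4% and 12.3%), against 14.7% and 13.2% of all genes tested.

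**Figure D5:**
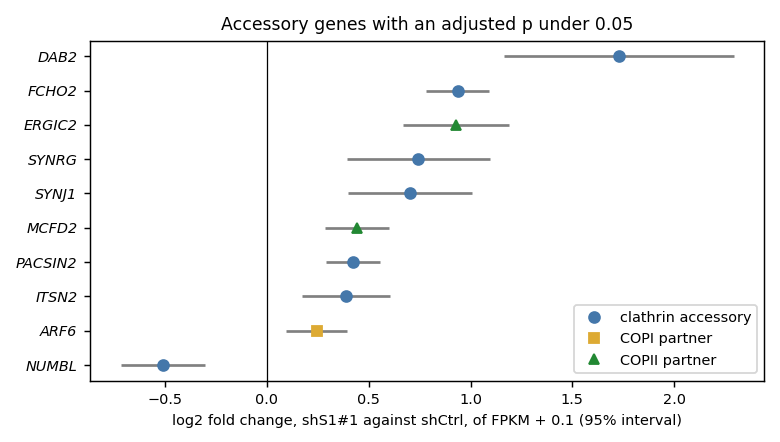
Log2 fold change (x axis, shS1#1 against shCtrl, on FPKM + 0.1) with its 95% interval from limma for the 10 accessory genes with an adjusted p under 0.05, marked by their group in the list. DAB2 stands farthest to the right at 1.73, and NUMBL (-0.51) lies to the left of 0.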

How the data were processed

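RNA from 3 shCtrl and 3 shS1#1 samples of NCI-N87 cells was sequenced. Per the labels, the submitters' processing notes name genome build hg38, HISAT2 2.0.5, featureCounts 1.5.0-p3 and DESeq2 1.20.0, and no strand setting is given in the sources used here. The deposited unit is FPKM, 1 value for each gene in each library. Values times gene length came in whole steps of 1 size per library (100% of values, tolerance 0.05), which gave the reads per gene, and this scaling already held a size factor per library (0.914 to 1.11). Coordinates of all 63 coat genes equalled GENCODE 29 on GRCh38.

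Expression was fitted in R 4.3.3 with limma 3.58.1 (lmFit, eBayes with trend) after adding 0.1 to FPKM and taking log2, for 15556 genes averaging 0.5 FPKM or more, with Benjamini-Hochberg adjustment. Python 3.11.15 with pandas 2.3.3 computed shares and sequences. Precision is limited by 3 libraries per group and, for low genes, by counting. Of the tested coat genes, 18 share exonic bases with another gene of at least 0.5 FPKM, 17 of them with one on the opposite strand, where reads cannot be told apart without strand. The members and lists were chosen with earlier results of these data known. Named genes were all members, with values per library for called members and for the 3 highest and 3 lowest tested members, SCAMP1, ARCN1, and, of the accessory genes called, the 3 highest and 3 lowest by log2 fold change. Values per library of other members were chosen after they were seen. Alternatives covered the pseudocount, filter, scaling, trend, biotype, voom, replicate block and each library left out, and, added after seeing the data, removal of the length trend and FPKM from library totals. An accessory gene is not reported here, and counts of accessory genes leave it out. Cells with shS1#2, SNU-1 cells and protein data were not analysed here.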

Additional observations from a re-analysis of the deposited data

How the results depend on the processing

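CLTB and EPN3 were called higher under every setting tried, with log2 fold changes from 0.87 to 1.05 for CLTB and from 0.55 to 0.65 for EPN3. Against 4 higher, 0 lower and 0 differentially expressed coat genes with all libraries, leaving out single libraries gave 2 to 13 higher, 0 to 3 lower and 0 to 1 differentially expressed. For the accessory genes, at 9 higher and 1 lower, it gave 4 to 23 higher and 0 to 10 lower. The highest counts were those without shS1#1 replicate 2, a fit that called 14.7% of all genes tested higher and 13.2% lower. The number of lower coat genes was 1 with a minimum mean of 1 FPKM and with rescaling to the sum of FPKM, 2 with protein-coding genes only, with the length trend removed and with FPKM from library totals, and 3 with voom. CLTB was the 1 coat gene differentially expressed with quantile normalization and with the length trend removed. The number of lower accessory genes was 5 with voom, 3 with the length trend removed and with FPKM from library totals, and 2 with a minimum mean of 1 FPKM, with protein-coding genes only and with quantile normalization. With a minimum mean of 1 FPKM, 854 of all 12857 genes tested were lower, and with protein-coding genes only 1056 of 11529. Of 15556 genes, 880 were lower with rescaling to the sum of FPKM, 1005 with quantile normalization and 1153 with the length trend removed. The count was 1268 with FPKM from library totals and 1655 with voom. Over all genes, a pseudocount of 1 gave 248 differentially expressed genes in place of 492, as it shrinks the fold changes of low genes. The log2 fold change of AP2B1, 0.02 with all libraries, was -0.012 with rescaling to the sum of FPKM, -0.059 with voom and with FPKM from library totals, -0.027 with the length trend removed, and between -0.19 and 0.13 with single libraries left out, negative without shS1#1 replicate 2. SEC24D missed the threshold with no filter on low values (limma adjusted p = 0.0747). The cause was not tested for the other changes.

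The replicate numbers showed no clear pairing of the libraries. Correlations of same-numbered deviations from the group means lay between -0.04 and 0.07, and those of different-numbered ones between -0.08 and 0.05. With 3 libraries per group these values cannot exclude a pairing. With the replicate block, 2 coat genes (CLTB and EPN3) were higher and 0 lower, and 4 accessory genes were higher and 0 lower. The block left 704 higher and 254 lower genes of all genes tested, against 1372 and 805 without it. The depth of 14311769 to 15988700 reads limits mostly genes such as DNM1 and SEC31B, with as few as 64 and 49 reads in a library.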
